A study of Homo sapiens with 8 samples.

Results

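The 10 genes described here encode subunits of protein phosphatase 2A (PP2A) and of its close relatives PP4 and PP6, and they were followed through selective ribosome profiling of the chaperonin TRiC and of its partner prefoldin (PFD). They are the catalytic genes PPP2CA, PPP2CB, PPP4C and PPP6C, the scaffold genes PPP2R1A and PPP2R1B, the B55 regulatory genes PPP2R2A and PPP2R2D, and the B56 regulatory genes PPP2R5C and PPP2R5D. They were picked by gene name from the 60664 gene identifiers in each of the 2 deposited count tables. The class they were drawn from was catalytic, scaffold and WD40 regulatory subunits, and the list departs from it in both directions. PPP2R5C and PPP2R5D belong to the B56 family, which folds as helical repeats and not as a WD40 propeller, whereas the WD40 genes PPP2R2B and PPP2R2C are in both tables but not among the 10 and are given with the wider family.

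All libraries came from U2OS cells, a human osteosarcoma line, of genotype CCT4-Halo (TRiC) or PFDN4-Halo (PFD). A HaloTag had been inserted with CRISPR–Cas9 into the gene of the TRiC subunit CCT4 or of the PFD subunit PFD4, and each line is 1 clone, so that line, clone and bait cannot be told apart. Before lysis, every sample received cycloheximide (100 µg/ml, 1 min) to hold ribosomes in place and then the crosslinker DSP (2 mM, 30 min), after which ribosome-protected fragments (RPFs) were sequenced from total ribosomes (input) or from ribosomes recovered on anti-Halo beads (pulldown). Input and pulldown of either line made 4 groups with 2 biological replicates each, or 8 libraries, and no untagged line is among them.

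The libraries held 9523128 to 32637658 counts. Replicates were less alike in the PFD libraries, where the correlation of log2 levels across genes was 0.955 between inputs and 0.851 between pulldowns, against 0.992 and 0.989 in the TRiC libraries. Of the markers of a mesenchymal or osteoblast lineage, VIM, COL1A1 and RUNX2 were at 40.7 CPM (RPF counts relative to the TMM-scaled library size) or more in every input, ALPL at 2.52 to 43.3, and COL1A2, SP7 and BGLAP at 1.76 or less. The epithelial marker EPCAM lay between 8.7 and 18.4 CPM and CDH1 and the blood marker PTPRC at 0.729 or less.

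PP2A removes phosphate from serine and threonine residues of a large share of the phosphoproteome. Its core is a dimer of a catalytic subunit and a scaffold made of HEAT repeats, and an exchangeable B subunit directs the core to its substrates. PP4 and PP6 have related catalytic subunits that pair with regulatory subunits of their own. The B55 subunits and the striatins carry WD40 propellers, a fold that is well known among the substrates of TRiC, which encloses unfolded chains in a cavity, while PFD binds chains and hands them to TRiC.

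Reads can only be credited to 1 subunit where its sequence differs from that of its paralogs, so stretches of 60 coding bases within an exon are shown in which PPP4C and PPP6C are most like PPP2CA and PPP2R1B is most like PPP2R1A (hg38, GENCODE 44). PPP2CB, which is closer to PPP2CA, is not shown. The catalytic stretches lie in coding exon 3 of PPP2CA (chr5:134201951-134202010, minus strand), coding exon 5 of PPP4C (chr16:30083405-30083464, plus strand) and coding exon 4 of PPP6C (chr9:125158249-125158308, minus strand). Capitals mark bases that differ from PPP2CA, of which PPP4C had 15 and PPP6C 12.
PPP2CA: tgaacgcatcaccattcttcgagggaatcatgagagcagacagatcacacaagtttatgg
PPP4C: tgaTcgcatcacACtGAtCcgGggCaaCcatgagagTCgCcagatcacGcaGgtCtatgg
PPP6C: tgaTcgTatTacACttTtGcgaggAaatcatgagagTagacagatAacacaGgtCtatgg

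The scaffold stretches lie in coding exon 10 of PPP2R1A (chr19:52219778-52219837, plus strand) and coding exon 10 of PPP2R1B (chr11:111752186-111752245, minus strand). Capitals mark the 8 bases of PPP2R1B that differ from PPP2R1A.
PPP2R1A: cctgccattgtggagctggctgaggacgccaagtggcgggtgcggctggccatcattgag
PPP2R1B: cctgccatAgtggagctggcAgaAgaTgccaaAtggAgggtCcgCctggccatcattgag

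Over whole coding sequences, PPP2CA and PPP2CB were identical at 83.2% of aligned bases, the highest share among the 7 pairs compared. PPP2R2A and PPP2R2D were identical at 76.7%, PPP2R1A and PPP2R1B at 73.7%, PPP2R5C and PPP2R5D at 70.8%, and PPP2CA was identical to PPP4C at 65.0% and to PPP6C at 65.3%. The longest identical run was 26 bases, between PPP2CA and PPP2CB and between PPP2R2A and PPP2R2D, and no pair shared a window of 30 bases, which is about the length of an RPF.

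Copies elsewhere in the genome touched 4 of the 10 genes. For PPP2R5C, 32.8% of its 30-base coding windows also occurred outside the gene, many in the processed pseudogene PPP2R5CP, which lies within DNAH1. For PPP2CB the share was 17.2%, in 1 processed pseudogene, for PPP2R2D 3.15% and for PPP2R2A 0.837%. The other 6 genes had none. Since only uniquely aligned reads were counted, reads from such windows are missing from the counts of these genes. PPP2R5CP itself held 11 to 29 counts in the TRiC libraries and at most 1 in the PFD libraries, beside 1381 to 1657 and 171 to 936 for PPP2R5C.

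Levels between genes were compared per kilobase of coding sequence (CPM per kb, here called density), which reflects the mRNA level and the ribosomes per mRNA together. PPP2R1A, the scaffold that most PP2A holoenzymes contain, was the most densely translated of the 10 in both lines. Its density was 208 and 210 in the TRiC inputs but 313 and 318 in the PFD inputs. Its paralog PPP2R1B had 54.9 and 65.2 in the TRiC and 84.4 and 79.0 in the PFD inputs. PPP2R1A therefore made up 77.7% ± 2.04 (SD, n = 2) of the scaffold density in the TRiC inputs and 79.4% ± 0.943 (SD, n = 2) in the PFD inputs.

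Among the catalytic genes of the TRiC inputs, PPP4C (137 ± 7.24, SD, n = 2) and PPP2CA (126 ± 4.23) stood above PPP2CB (78.0 ± 9.42) and PPP6C (63.8 ± 5.90). PPP2R2A, the most abundant B55 subunit here, had 71.5 ± 1.81 and overlapped PPP2CB, and PPP2R1B overlapped both PPP6C and the B56 gene PPP2R5D (56.2 ± 2.00). PPP2R5C (28.7 ± 0.0329) and PPP2R2D (17.9 ± 0.625), a B55 subunit with a role in mitosis, were lowest, and their ranges overlapped no neighbour. In this order, of the 9 pairs of neighbours, 3 overlapped over their replicates.

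In the PFD inputs, PPP4C (106 ± 6.08), PPP2CA (106 ± 8.57) and PPP2R2A (100 ± 14.6) followed PPP2R1A and overlapped as neighbours. PPP2CB (85.5 ± 5.92) and PPP2R1B (81.7 ± 3.80) overlapped next, then came PPP6C (70.4 ± 2.67) and PPP2R5D (44.3 ± 5.81). PPP2R2D (17.3 ± 4.43) and PPP2R5C (11.1 ± 2.22) were again the lowest 2, here in the opposite order.

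Summed over paralogs, the scaffold density exceeded the PP2A catalytic density (PPP2CA plus PPP2CB) 1.32-fold ± 0.0734 (SD, n = 2) in the TRiC inputs and 2.08-fold ± 0.0275 in the PFD inputs. The catalytic sums were 204 ± 5.18 and 191 ± 2.65, and the scaffold sums were 269 ± 8.09 and 397 ± 0.272. PPP2CA supplied 61.7% ± 3.65 of the catalytic density in the TRiC and 55.2% ± 3.72 in the PFD inputs, which became 57.2% ± 3.78 and 50.6% ± 3.76 over windows that occur once in the genome. Of the B55 density summed over PPP2R2A and PPP2R2D, PPP2R2A supplied 80.0% ± 0.154 in the TRiC and 85.4% ± 1.41 in the PFD inputs. Among the B56 genes, PPP2R5E, which is not one of the 10, was denser than PPP2R5C and PPP2R5D, at 99.3 ± 5.29 in the TRiC and 81.1 ± 5.27 in the PFD inputs. The lines were 2 separate clones with libraries in separate tables, so these contrasts between lines were not tested.

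Counting only windows that occur once in the genome raised PPP2R5C to 43.3 ± 0.0497 per 1000 windows in the TRiC and 16.7 ± 3.35 in the PFD inputs, and PPP2CB to 96.9 ± 11.7 and 106 ± 7.36. PPP2R5C was still below all genes but PPP2R2D in the TRiC inputs, and in the PFD inputs it lay next to PPP2R2D (18.2 ± 4.66). PPP2CB then lay beside PPP2CA (109 ± 8.82) in the PFD inputs and overlapped it.

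**Figure D1:**
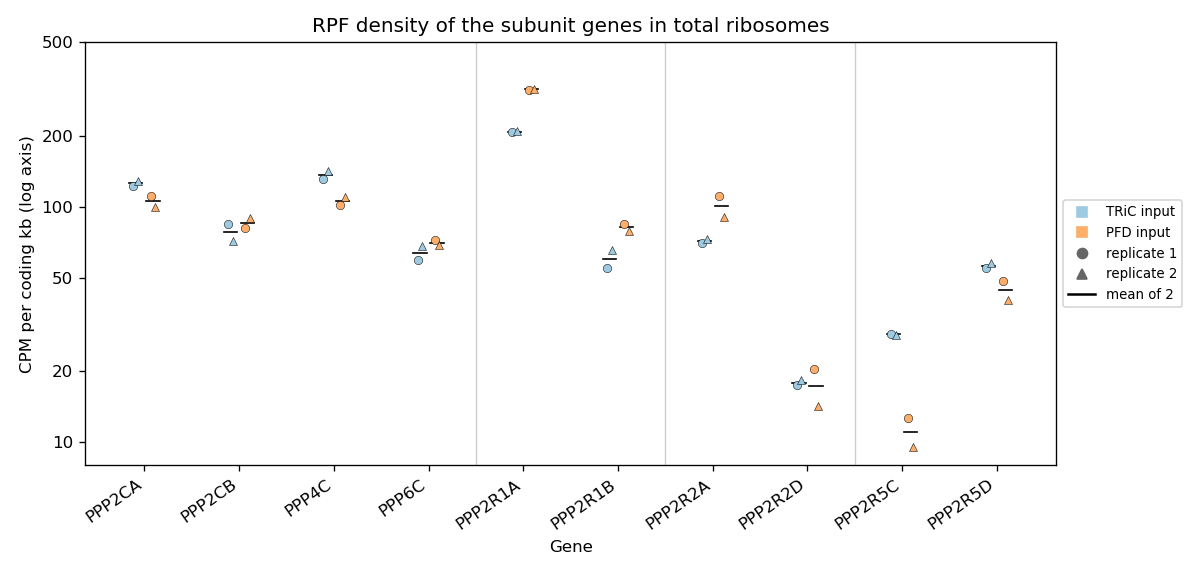
RPF density (CPM per coding kb, log axis) of the 10 subunit genes in the TRiC and PFD inputs; circles and triangles are replicates 1 and 2, and black lines are means of 2. PPP2R1A is highest in both lines, at 209 and 316, and PPP2R2D and PPP2R5C are lowest.

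To ask which of these genes yielded more or fewer RPFs on ribosomes recovered with TRiC, the TRiC pulldown was compared with the TRiC input by edgeR's quasi-likelihood test, fitted on all genes and adjusted over them by Benjamini-Hochberg. A gene is called here at an adjusted p under 0.05, and a fold change is relative to the bulk of genes, which TMM scaling sets to no change. Gene totals hold no position along the mRNA, so binding over a short stretch of the chain would not show in them. Of the 10 genes, 2 were lower in the TRiC pulldown and none was higher. Of all 17934 genes tested, 10.6% were lower and 8.64% higher.

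The genes that were lower are PPP4C (chr16:30075978-30085376, plus strand), the catalytic subunit of PP4, and PPP2R1A (chr19:52170936-52229518, plus strand), the PP2A scaffold. PPP4C had 121 and 131 CPM in the TRiC inputs against 103 and 88.7 in the pulldowns. Both pulldowns lay below both inputs, and the log2 fold change was −0.40 (SE 0.09, edgeR adjusted p = 0.00569), or 0.76-fold. Without TRiC input replicate 2 it was −0.35 and no longer passed (edgeR adjusted p = 0.0682).

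PPP2R1A, of whose exon bases 6.72% are covered by an opposite-strand gene, had 368 and 370 CPM in the TRiC inputs against 305 and 282 in the pulldowns. The groups did not overlap, and the log2 fold change was −0.33 (SE 0.07, edgeR adjusted p = 0.00368), or 0.795-fold. The call held without each library in turn, with log2 fold changes of −0.40 to −0.27, and with cyclic loess the value was −0.21 (limma adjusted p = 0.0381). The calls of PPP2R1A and PPP4C were lost in a test against a 1.5-fold change (adjusted p = 1 in edgeR's glmTreat) and in a fit that shared 1 spread over all 8 libraries (edgeR adjusted p = 0.219 for PPP2R1A and 0.864 for PPP4C).

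The PP2A catalytic genes did not pass this test, which was run without a replicate block. PPP2CA had 114 and 119 CPM in the TRiC inputs against 109 and 105 in the pulldowns, with a log2 fold change of −0.12 (95% confidence interval −0.29 to 0.05). PPP2CB had 78.5 and 66.1 in the inputs against 56.3 and 63.5 in the pulldowns, with a log2 fold change of −0.27 (SE 0.10, edgeR adjusted p = 0.0756). With a replicate block, which allows for a shift shared by same-numbered libraries, it passed (−0.27, edgeR adjusted p = 0.0249). Both pulldowns of each gene lay below both inputs. PPP2CB was near the threshold and passed without TRiC input replicate 2 (−0.40, edgeR adjusted p = 0.0495) and without TRiC pulldown replicate 2 (−0.35, edgeR adjusted p = 0.0123). Without TRiC input replicate 1 its value was −0.14 (edgeR adjusted p = 0.631), and without TRiC pulldown replicate 1 it was −0.20 (edgeR adjusted p = 0.178).

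PPP6C, the catalytic subunit of PP6, had 54.6 and 62.2 CPM in the TRiC inputs against 50.4 and 61.1 in the pulldowns, which overlapped. Its log2 fold change was −0.07 (95% confidence interval −0.30 to 0.16). The second scaffold gene, PPP2R1B, had 98.9 and 118 in the inputs against 97.3 and 115 in the pulldowns, with a log2 fold change of −0.03 (95% confidence interval −0.24 to 0.18). It did not show the lower level of PPP2R1A, although the difference between these 2 genes was not tested.

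The WD40 subunits gave log2 fold changes near 0. PPP2R2A, which guides PP2A to mitotic substrates, had 94.2 and 97.6 CPM in the TRiC inputs against 92.7 and 98.7 in the pulldowns. The pulldowns enclosed the inputs, and the log2 fold change was −0.0035 (95% confidence interval −0.18 to 0.18). PPP2R2D had 23.7 and 24.9 in the inputs against 23.1 and 28.4 in the pulldowns, with a log2 fold change of 0.08 (95% confidence interval −0.20 to 0.36). Neither WD40 gene passed the test, in a gene total that would miss binding over a short stretch.

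The B56 subunits were likewise not called. PPP2R5C had 49.8 and 49.7 CPM in the TRiC inputs against 49.7 and 55.4 in the pulldowns, with a log2 fold change of 0.08 (95% confidence interval −0.13 to 0.29). PPP2R5D had 98.9 and 104 in the inputs against 96.7 and 92.1 in the pulldowns, with a log2 fold change of −0.10 (95% confidence interval −0.28 to 0.08). The opposite-strand gene MEA1 covers 31.5% of its exon bases, and the strand setting of the counts is not stated.

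Over all 10 genes the median log2 fold change in the TRiC comparison was −0.09, beside 0.00 (−0.003) over all genes tested, and 2 genes were above 0 and 8 below. This gap depended on the processing. With cyclic loess the medians were −0.016 and −0.018, and with at least 100 counts in every library −0.022 and 0.006, each with 4 genes above 0. With DESeq2 they were −0.074 and 0.009, with 3 above 0. Both pulldowns lay below both inputs for 5 of the 10 (PPP2CA, PPP2CB, PPP4C, PPP2R1A and PPP2R5D), a separation that 31.2% of all tested genes also showed. Both pulldowns lay above both inputs for none of the 10, against 29.3% of all tested genes.

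**Figure D2:**
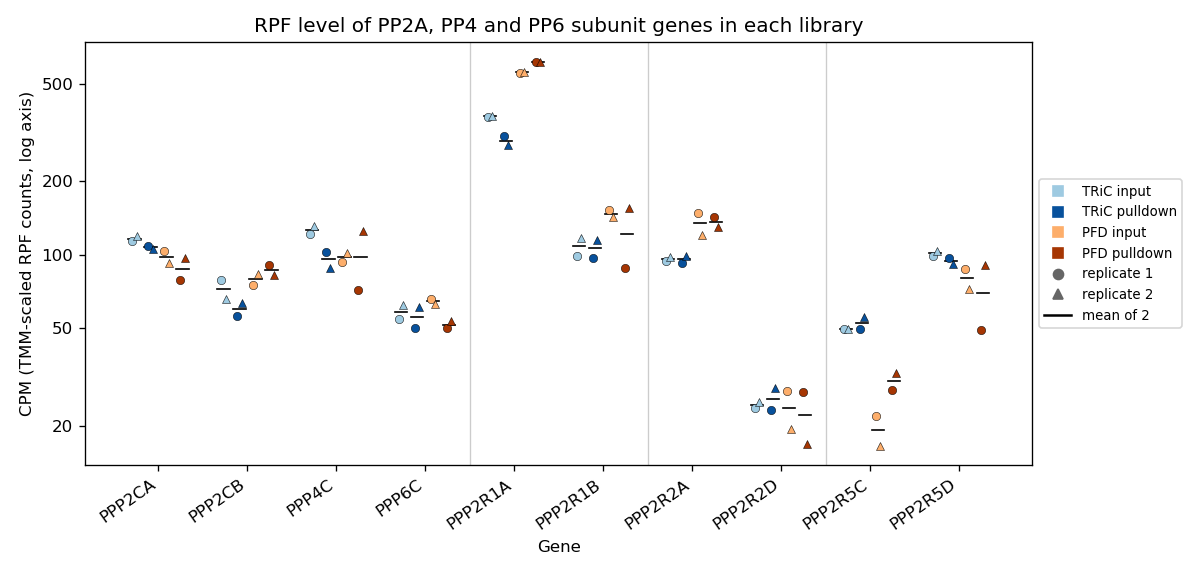
CPM (TMM-scaled RPF counts, log axis) of the 10 subunit genes in all 8 libraries; colours are the 4 groups, circles and triangles are replicates 1 and 2, and black lines are means of 2. PPP2R1A falls from 369 to 293 between TRiC input and pulldown and stands at 558 and 616 in the PFD groups, and the PFD pulldowns of PPP4C, PPP2R1B and PPP2R5D lie far apart.

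The same comparison was made for PFD. None of the 10 genes was called in the PFD pulldown, where 0.0496% of the 14111 genes tested were higher and 0.191% lower. None of the 10 had an unadjusted p under 0.05 either, against 978 of all genes. DESeq2 and the other settings run on all 4 PFD libraries also called none. Without PFD pulldown replicate 2, which leaves a single PFD pulldown, the log2 fold change of PPP2R1B moved from −0.27 to −0.74. That of PPP2R5D moved from −0.19 to −0.71.

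Between replicates, the 10 genes differed 1.01-fold to 1.84-fold in the PFD pulldowns, with a median of 1.20-fold, against 1.04-fold to 1.23-fold in the TRiC pulldowns. The largest gap was that of PPP2R5D, a B56 subunit, at 49.3 and 90.7 CPM in the pulldowns beside 87.4 and 72.6 in the inputs. PPP2R1B had 88.6 and 155 in the pulldowns beside 152 and 142 in the inputs. PPP4C had 71.6 and 125 in the pulldowns beside 93.7 and 102 in the inputs. In these 3 genes replicate 1 was the low pulldown, and it enclosed the inputs together with replicate 2, so their log2 fold changes of −0.19, −0.27 and 0.01 carried 95% confidence intervals from −0.89 to 0.51, from −0.85 to 0.32 and from −0.60 to 0.63.

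PPP2R1A had the narrowest interval of the 10 genes in the PFD comparison. It had 553 and 562 CPM in the PFD inputs against 615 and 618 in the pulldowns, and both pulldowns lay above both inputs. The log2 fold change was 0.14 (SE 0.09, 95% confidence interval −0.07 to 0.36, edgeR adjusted p = 0.863), and it stayed between 0.12 and 0.14 when each library was left out in turn.

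PPP2R5C had the highest log2 fold change of the 10 in the PFD comparison, 0.66 (SE 0.36, 95% confidence interval −0.18 to 1.5, edgeR adjusted p = 0.812). It had 21.9 and 16.5 CPM in the PFD inputs against 28.0 and 32.8 in the pulldowns, which did not overlap. It was also among the thinnest, with 171 counts in PFD input replicate 2 and 260 in PFD pulldown replicate 1. PPP6C had 66.1 and 62.7 in the inputs but 50.2 and 53.4 in the pulldowns, on the other side of 0 and again without overlap (−0.31, SE 0.22, edgeR adjusted p = 0.876). Separation of this kind was seen upwards in 18.3% and downwards in 20.4% of all tested genes, and upwards in 2 and downwards in 1 of the 10.

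The other 4 genes overlapped between PFD input and pulldown. PPP2CA had 103 and 92.3 CPM in the inputs against 78.6 and 96.8 in the pulldowns, and PPP2CB had 75.3 and 83.1 in the inputs against 90.6 and 82.4 in the pulldowns. PPP2R2A had 148 and 121 in the inputs against 143 and 130 in the pulldowns. PPP2R2D had 27.8 and 19.3 in the inputs against 27.4 and 16.8 in the pulldowns. The log2 fold changes of these genes lay between −0.16 and 0.13, and the interval of PPP2R2D was the widest of the 10, from −1.07 to 0.88. The median over the 10 genes was −0.04, beside 0.00 (−0.0005) over all genes tested, with 5 genes on each side of 0.

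**Figure D3:**
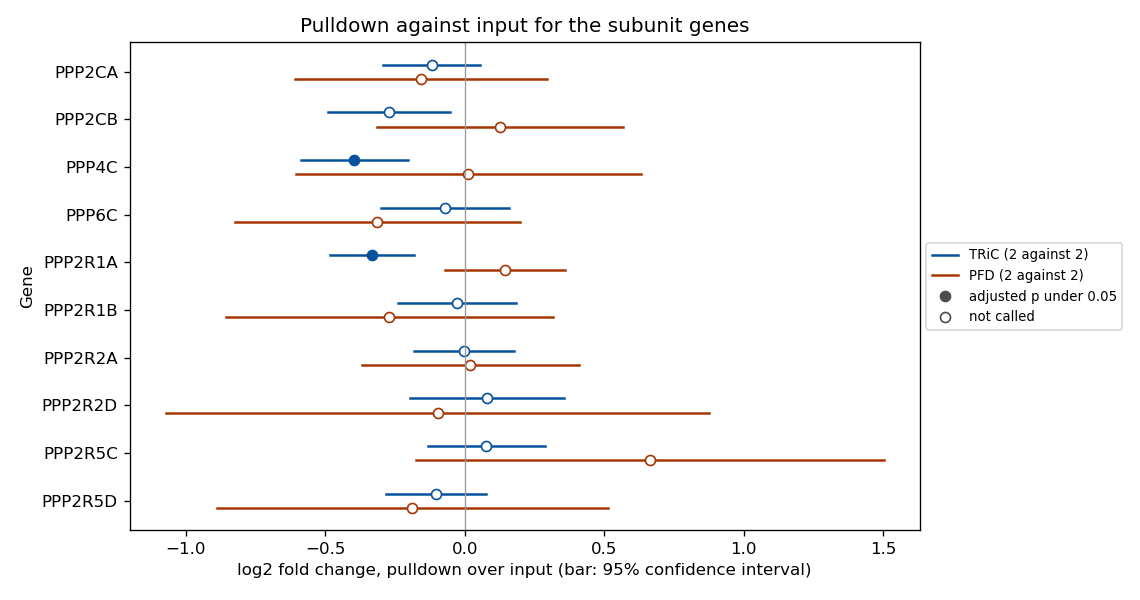
log2 fold change of pulldown over input with its 95% confidence interval for the 10 subunit genes, for TRiC and PFD (2 libraries against 2 each); filled points passed an adjusted p of 0.05. Only PPP2R1A and PPP4C in TRiC are filled, at −0.33 and −0.40, and the PFD intervals are wider for every gene.

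Whether a gene differed between the chaperones was tested as the TRiC log2 fold change minus the PFD log2 fold change, in a fit of all 8 libraries. None of the 10 genes was called, and 0.0212% of the 18855 genes tested were higher and 0.0159% lower. At an unadjusted p under 0.05 there were 2791 genes in all and 1 of the 10, PPP2R1A, whose difference was −0.46 (SE 0.11, 95% confidence interval −0.72 to −0.21, edgeR adjusted p = 0.175). All 4 ratios of a TRiC pulldown to a TRiC input were below 1 for PPP2R1A, and all 4 ratios in PFD were above 1. Such separation was seen downwards in TRiC in 31.2% of all tested genes and upwards in PFD in 18.3%. The share of genes with both was not counted. DESeq2 called the difference of PPP2R1A (−0.47, DESeq2 adjusted p = 0.000155), in a fit that called 481 of all genes higher and 536 lower. With edgeR the difference was −0.50 without PFD pulldown replicate 1 and −0.40 without PFD pulldown replicate 2.

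Among the rest, PPP2R5C differed by −0.57 (95% confidence interval −1.24 to 0.10), PPP4C by −0.41 (−1.21 to 0.38) and PPP2CB by −0.38 (−0.83 to 0.06), and the other 6 lay between −0.01 and 0.26. The lower level of PPP4C in the TRiC pulldown was therefore not shown to be particular to TRiC. For PPP4C, leaving out PFD pulldown replicate 1 gave −0.78, and leaving out PFD pulldown replicate 2 gave 0.12. Without PFD pulldown replicate 2, the differences of PPP2R1B and PPP2R5D were 0.78 and 0.67.

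The wider family comprised 34 further PP2A, PP4 and PP6 genes and 7 catalytic subunits of other PPP phosphatases. In the TRiC pulldown, 2 of the 34 were higher and 3 lower, with a median log2 fold change of 0.02, beside 8.64% higher and 10.6% lower over all genes tested. The higher genes were 2 of the 6 PP6 regulatory subunits. Another of these subunits, PPP6R1, went the other way without a call (−0.27, SE 0.09, edgeR adjusted p = 0.0581). PPP6R2 had 94.4 and 94.5 CPM in the TRiC inputs against 132 and 131 in the pulldowns (0.48, SE 0.08, edgeR adjusted p = 0.000664), and the opposite-strand gene SBF1 covers 33.5% of its exon bases. In PFD, PPP6R2 changed by 0.47 (95% confidence interval −0.02 to 0.96) and was not called. Its difference, TRiC minus PFD, was 0.02 (95% confidence interval −0.37 to 0.40). That of the other higher gene, ANKRD28, was 0.60 (edgeR adjusted p = 0.319), and neither difference was called. ANKRD28, an ankyrin repeat subunit, changed by 0.43 (SE 0.09, edgeR adjusted p = 0.00212), and without TRiC input replicate 1 the value was 0.38 (edgeR adjusted p = 0.0510).

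The genes that were lower act on PP2A. SET, a PP2A inhibitor and histone chaperone, had 201 and 182 CPM in the TRiC inputs against 146 and 120 in the pulldowns (−0.52, SE 0.09, edgeR adjusted p = 0.000986). ENSA, which inhibits PP2A bound to B55 at mitotic entry, changed by −0.38 (SE 0.11, edgeR adjusted p = 0.0180). PTPA, an activator of the PP2A catalytic subunit, changed by −0.34 (SE 0.08, edgeR adjusted p = 0.00770). The calls of ENSA and PTPA were lost without either TRiC input (adjusted p = 0.0878 and 0.0715 without replicate 2, and 0.208 and 0.0803 without replicate 1).

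Grouped by role, the PP4 regulatory subunits had a median log2 fold change of 0.17 in the TRiC comparison with 5 of 5 above 0, and the striatins, WD40 subunits of another PP2A complex, 0.05 with 3 of 3 above 0. The 6 PP6 regulatory subunits had a median of 0.18 with 4 above 0. The 5 assembly and methylation factors (PTPA, LCMT1, PPME1, IGBP1 and TIPRL) had −0.23 with none above 0, and the 7 inhibitors had −0.19 with 1 above 0. PP4 subunits and striatins held no called gene. The 3 PR72 type B subunits had a median of 0.12 and no call. Over all 17934 genes tested, 8905 were above 0. These lists are small and differ in coding length, with 816 to 1158 nt for the assembly and methylation factors and 2259 to 2391 nt for the striatins. The part of coding length in the values by role was not tested.

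Of the B55 genes left out of the 10, PPP2R2B, a mostly neuronal subunit, was thinly covered and had 42 and 43 counts in the TRiC inputs against 99 and 56 in the pulldowns, with a log2 fold change of 0.83 (SE 0.41, edgeR adjusted p = 0.172). In the PFD libraries it had 0 and 0 counts in the inputs against 1 and 66 in the pulldowns, was not tested, and is given no fold. PPP2R2C gave 0.02 in TRiC and −0.37 in PFD. The other B56 genes PPP2R5A, PPP2R5B and PPP2R5E gave 0.08, −0.05 and −0.02 in TRiC and −0.31, −0.25 and −0.09 in PFD, and none was called.

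Of the 7 other PPP catalytic subunits, PPP1CA and PPP5C were lower in the TRiC pulldown and none was higher, with a median log2 fold change of −0.17, beside 10.6% of all genes lower and 8.64% higher. So small a list gives no result about these genes as a group. PPP1CA, a catalytic subunit of PP1, had 390 and 382 CPM in the inputs against 293 and 270 in the pulldowns (−0.45, SE 0.07, edgeR adjusted p = 0.000385). Opposite-strand genes cover 18.0% of the exon bases of PPP1CA and 8.97% of those of PPP5C. PPP5C, which binds Hsp90 through its TPR domain, changed by −0.28 (SE 0.08, edgeR adjusted p = 0.0276), a call that was lost without TRiC input replicate 1 (adjusted p = 0.123) or 2 (adjusted p = 0.275), with library totals (adjusted p = 0.107), with cyclic loess (limma adjusted p = 0.108) and with at least 100 counts in every library (adjusted p = 0.0586). The calls of PPP6R2, SET and PPP1CA held without each library in turn, whereas the fit over all 8 libraries and the test against 1.5-fold each lost all 7 calls of the wider family. In the PFD pulldown none of the 33 tested PP2A-family genes and none of the 7 was called, and 2 of the 33 had an unadjusted p under 0.05.

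The TRiC values moved with coding length. This description was chosen after the values were seen. Of the 51 listed genes, the 15 with a coding length under 1000 nt had a median log2 fold change of −0.19, with none above 0, 5 lower and none higher. All 4 catalytic genes of the set are in this class, at 915 to 927 nt. The 21 genes of 1000 to 2000 nt had a median of −0.02 with 2 lower, among them PPP2R1A at 1767 nt, and the 15 of 2000 nt or more had a median of 0.17 with 13 above 0 and 2 higher.

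The same order held over all genes. Of the 4427 protein-coding genes tested with a coding length under 1000 nt, 1265 were above 0, 23.6% were called lower and 2.89% higher. Of the 4608 of at least 2000 nt, 3070 were above 0, 3.62% were called lower and 16.6% higher. Spearman's rho between coding length and log2 fold change was 0.35 over 14611 protein-coding genes, 0.66 over the 51 listed genes and 0.27 over the 10, across genes that share the same 4 libraries and are not independent replicates. In the PFD comparison it was 0.07 over 12649 genes, 0.15 over the 50 listed genes tested and 0.09 over the 10. The part of coding length in the lower level of PPP4C was not tested. In the length class of PPP2R1A, 9.43% of the tested protein-coding genes were lower and 4.90% higher.

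**Figure D4:**
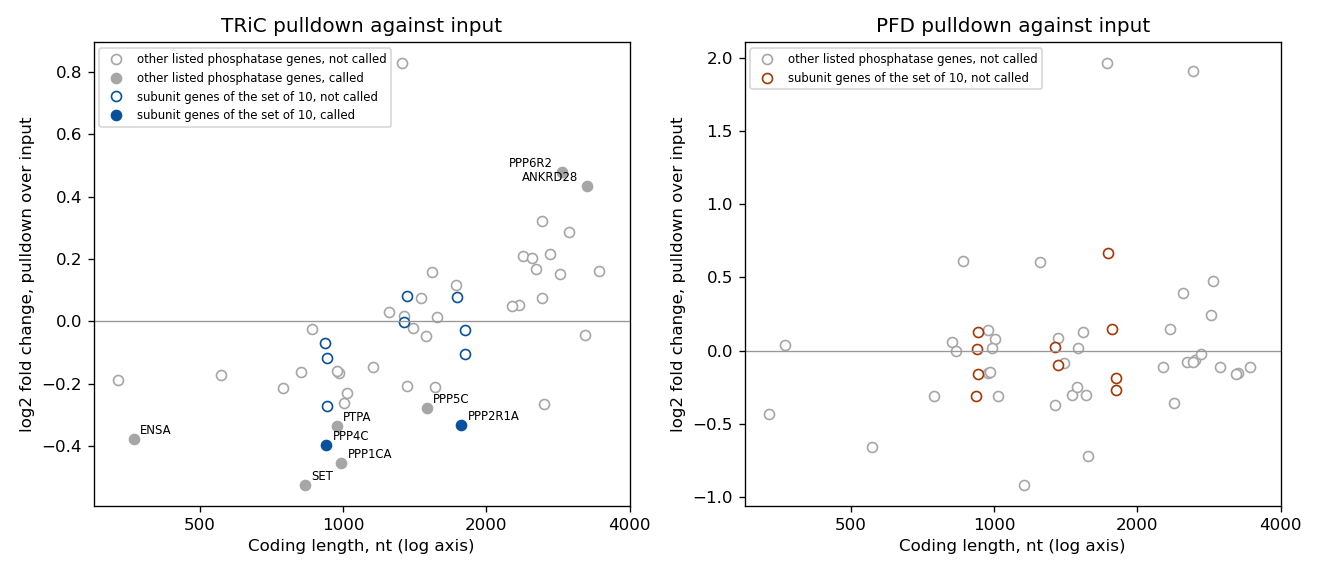
log2 fold change of pulldown over input against coding length (nt, log axis) for the 51 listed phosphatase genes in TRiC and the 50 tested in PFD, on separate vertical scales; coloured points are the 10 subunit genes, grey points the others, and filled points passed an adjusted p of 0.05. In TRiC no listed gene under 1000 nt lies above 0, and 13 of the 15 listed genes of 2000 nt or more do. Over all tested protein-coding genes, 1265 of 4427 and 3070 of 4608 in these length classes were above 0.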

How the data were processed

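Per the methods and the labels, the authors removed PCR duplicates through unique molecular identifiers (UMI-tools), discarded non-coding RNA reads with Bowtie2 2.4.2, aligned the rest to hg38 with STAR 2.7.10a (at most 2 mismatches, unique alignments) and deposited STAR's read counts per gene, not normalized, in a table per cell line. The annotation release and strand column are not given in the sources used here. All 8 columns were used. Of 60664 identifiers, 60463 matched GENCODE 44, which gave names and coding lengths, and all 51 listed genes matched.

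Counts were scaled with TMM, filtered with filterByExpr and tested with edgeR 4.0.16 in R 4.3.3 (glmQLFit, glmQLFTest, Benjamini-Hochberg over all genes, threshold 0.05), per line and, for the difference between lines, over all 8 libraries. Values per replicate are CPM on TMM-scaled library sizes. Each SE was calculated back from the test, as the absolute log2 fold change divided by the square root of edgeR's F statistic. The 95% confidence intervals were built from these SEs. p-values measure a change against the spread between the 2 libraries of a group. In edgeR that spread was pooled over the groups of a fit and moderated with the spread of the other genes. The 10 genes had 171 counts or more in every library. Window uniqueness was an exact search of 30-base coding windows over 25 hg38 chromosomes.

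The 10 genes and the lists were chosen with earlier results of these data known. All 10 were named, as were called genes of the other lists and the B55 and B56 paralogs. PPP6R1 was also named, after its value was seen, and the other genes are given as counts and medians. As alternatives, the fits were repeated with DESeq2 1.42.0, a replicate block, library totals, cyclic loess with limma-trend (limma 3.58.1), filters (none, or 10 or 100 counts in every library), glmTreat at 1.5-fold, all 8 libraries in one fit, PPP2CA and PPP2CB summed, leaving out each library, and other coding lengths. Unique windows and coding genes alone were chosen after the data were seen.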

Additional observations from a re-analysis of the deposited data

Results flagged for a closer look

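PPP2R1A, the main PP2A scaffold, was picked out because its levels went in opposite directions with the 2 chaperones in every library. Each TRiC pulldown was below each TRiC input, with log2 ratios of −0.39 to −0.27, and each PFD pulldown was above each PFD input, with log2 ratios of 0.13 to 0.16. Of all tested genes, 31.2% were separated downwards in TRiC and 18.3% upwards in PFD, and the share with both was not counted. The difference of log2 fold changes of PPP2R1A, TRiC minus PFD, was −0.46 and did not pass the adjustment over all genes (edgeR adjusted p = 0.175). No other gene of the 10 met this condition, and groups of 2 are too small to test a single sample as an outlier.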

How the results depend on the processing

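Over 554 alternative values of single genes, 465 kept their direction and their side of the threshold, 29 lost a call, 12 gained one and 48 changed sign. All values that changed sign belonged to genes not called in the comparison concerned, and apart from the settings named here the direction held. The calls of PPP2R1A and PPP4C in TRiC kept their direction in all 14 alternatives each and lost their call in 2 and 3 of them. With cyclic loess the value of PPP2R1A was −0.21 (limma adjusted p = 0.0381). Each group held 2 libraries, and each of the 10 genes had 171 counts or more in every library.

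Same-numbered libraries deviated together little (correlation 0.213 in TRiC and −0.0188 in PFD), and the labels do not say what a number shares. Per the methods, the total RNA samples and the pulldowns were both taken from ribosome pellets. With a replicate block, 3 of the 10 genes were lower in TRiC (PPP2CB joined, −0.27, adjusted p = 0.0249) beside 2037 higher and 2652 lower of all genes, 44 genes were higher and 90 lower in PFD with PPP4C at −0.043, and 0 were higher and 0 lower in the difference. Without a filter PPP2CB also passed (adjusted p = 0.0497).

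Against a 1.5-fold change, 164 genes were higher and 64 lower in TRiC and 0 of the 10 lower. With all 8 libraries in one fit, 16 were higher and 15 lower in TRiC with 0 of the 10, and 27 higher and 56 lower in PFD. For PFD, DESeq2 called 256 higher and 295 lower, cyclic loess 14 and 43, and no filter 59 and 93. For the difference, DESeq2 called 481 higher and 536 lower with 1 of the 10 (PPP2R1A), no filter 213 and 298, at least 10 counts 9 and 5, at least 100 counts 10 higher and cyclic loess 2 higher. The cause of these shifts was not tested.

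Values near 0 changed sign as follows. In TRiC, PPP2R2A became 0.0088 with DESeq2, 0.043 with library totals, 0.036 with coding genes only, 0.077 with cyclic loess, 0.017 with at least 10 counts and 0.061 with at least 100 counts, and PPP2R1B became 0.016 with library totals, 0.058 with cyclic loess, 0.036 with at least 100 counts and 0.011 with coding genes only. In PFD, PPP2R2A became −0.013 and PPP4C −0.016 with library totals, PPP4C −0.028 with cyclic loess, and PPP2CB −0.024 when summed with PPP2CA. In the difference, PPP2R2A became 0.058 with library totals, 0.034 with cyclic loess, 0.0078 with at least 10 counts, 0.054 with at least 100 counts and 0.038 with coding genes only, and PPP2CA became −0.14 when summed with PPP2CB.

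Leaving out a library in turn gave 797 to 1994 genes higher and 748 to 2704 lower in TRiC, 28 to 1081 and 43 to 1353 in PFD with 0 to 2 of the 10 lower, and 0 to 2489 and 0 to 1442 in the difference with 0 to 2 of the 10 higher and 0 to 2 lower. The lone library of a group was then assumed to vary like the others. The median over the 10 genes ranged from −0.14 to −0.033 in TRiC and from −0.19 to 0.062 in PFD. In TRiC, PPP2CB ranged from −0.40 to −0.14, PPP2R1B from −0.14 to 0.090, PPP2R2A from −0.039 to 0.032, PPP2R2D from −0.064 to 0.21 and PPP6C from −0.20 to 0.055. In PFD, PPP2R1B ranged from −0.74 to 0.069, PPP2R2A from −0.13 to 0.17, PPP2R2D from −0.49 to 0.21, PPP2R5D from −0.71 to 0.18 and PPP4C from −0.45 to 0.35. In the difference, PPP2CA ranged from −0.12 to 0.27, PPP2R1B from −0.12 to 0.78, PPP2R2A from −0.20 to 0.13, PPP2R2D from −0.11 to 0.55, PPP2R5D from −0.30 to 0.67 and PPP4C from −0.78 to 0.12.

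Densities moved by more than the spread between replicates in few cases. Per unique window they were 96.9 (TRiC input) and 106.2 (PFD input) for PPP2CB, 43.3 and 16.7 for PPP2R5C, 212 and 320.4 for PPP2R1A, and in the TRiC inputs 73.6 for PPP2R2A and 18.8 for PPP2R2D. All 1741 windows of PPP2R1A occur once, so its values moved only because windows, and not coding bases, were the divisor. That change of divisor is part of every value per window. With the longest coding sequence the densities were 196 and 296 for PPP2R1A, 56.9 and 62.8 for PPP6C, and 73.6 for PPP2R1B in the PFD inputs. With library totals they were 205 for PPP2R1A and 28.2 for PPP2R5C in the TRiC inputs.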
